A study of Rattus norvegicus with 10 samples.

Results

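The Dlx family comprises the vertebrate homeobox genes related to Distal-less of the fruit fly, and its 6 members Dlx1 to Dlx6 were taken by name. Of these, 2 could be paired with a row of the deposited table, Dlx3 (ENSRNOG00000004278) and Dlx4 (ENSRNOG00000004399), out of 32883 genes in the table, and both passed the filter that left 15717 genes for testing. The other 4, Dlx1, Dlx2, Dlx5 and Dlx6, have no identifier in the sources used here and were not analysed here. Symbols came from the study's gene list, whose readable entries are genes called higher in these libraries. A gene could therefore be named only if it was higher after treatment, so Dlx3 and Dlx4 were chosen by their increase over the controls, which is given as a description without a test. The same holds for every other gene named below, so calls of single genes against controls restate the naming, and a p-value is given only for genes whose call was missed, or was gained, lost or turned under an alternative.

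Dlx proteins are homeodomain transcription factors, and their genes lie in adjacent pairs, Dlx1 with Dlx2, Dlx3 with Dlx4, and Dlx5 with Dlx6, whose members share regulatory elements. In the embryonic forebrain Dlx1, Dlx2, Dlx5 and Dlx6 are known for the ventral progenitors that give rise to GABAergic interneurons. Dlx3 and Dlx4 are known outside the brain, Dlx3 mainly in epidermis, hair, tooth, bone and placenta, and Dlx4 in placenta and the branchial arches.

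Bulk RNA sequencing was carried out on primary cortical neuron cultures from newborn Wistar rats, which also hold glial cells, and the inhibitors of histone deacetylases (HDACs) were added on day 14 in vitro and were not washed out. There were 3 control cultures and 3 cultures kept for 19 h with 100 nM trichostatin A (TSA). In a separate project there were 2 control cultures and 2 cultures kept for 24 h with sodium butyrate (NaB), whose dose reads 5 µM in the sample labels and 5 mM in the study's methods. No genetic change was made in any group, and drug, time of exposure and project cannot be told apart. The depth was 26070908 to 27649249 reads per library. In bulk RNA a larger share of cells that express a gene and more RNA per cell cannot be told apart. Replicates were separate biological replicates per the study's methods, which do not tie cultures to animals, so the p-values measure the spread between these cultures. None of the neuron, astrocyte, oligodendrocyte or microglia markers listed for a check of the cultures could be paired with an identifier, and this check was not made here.

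Dlx4 was nearly silent in the control cultures and was read in every treated one. The control cultures for TSA held 3, 0 and 1 reads of Dlx4, and the TSA-treated cultures held 92, 46 and 87. In the NaB project the controls held 2 and 0 reads and the treated cultures 100 and 120. The lowest treated library, TSA replicate 2, stood far above the highest control, and the treated and control libraries did not overlap with either drug. Every treated library was also above every control library in 33.1% of all tested genes with TSA and in 40.2% with NaB.

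As normalized counts (reads divided by 1 size factor per library), Dlx4 averaged 1.41 ± 1.61 (SD, n = 3) in controls and 70.8 ± 25.3 (SD, n = 3) under TSA. The NaB project gave means of 1.04 ± 1.46 (SD, n = 2) and 105 ± 15.0 (SD, n = 2). In CPM, the reads scaled to the library total, the level of Dlx4 was 0.0489 in controls and 2.80 with TSA, and 0.0374 in controls and 4.06 with NaB. Dlx4 thus stayed at a few CPM even where it was highest. From the summed reads, 225 against 4, Dlx4 was 50.2-fold higher with TSA, with an exact 95% interval of 19.3 to 186, and from 220 against 2 it was 101-fold higher with NaB (27.6 to 839). These intervals cover counting error only. On the scale of log2(normalized count + 1), which understates the change of genes with few reads, the difference was 5.06 (SE 0.58) with TSA and 5.91 (SE 0.71) with NaB.

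Dlx3, the neighbour of Dlx4, was likewise nearly silent in the controls and was read in every treated culture. Its reads were 2, 1 and 0 in the controls for TSA and 46, 17 and 50 with TSA. They were 2 and 0 in the NaB controls and 41 and 35 after NaB. Treated and control libraries again did not overlap, and TSA replicate 2 was again the lowest treated library. Mean normalized counts of Dlx3 were 1.05 ± 1.05 (SD, n = 3) and 35.7 ± 17.8 (SD, n = 3) without and with TSA, and 1.04 ± 1.46 (SD, n = 2) and 36.2 ± 3.54 (SD, n = 2) without and with NaB. In summed reads, Dlx3 was 33.6-fold higher with TSA (113 against 3 reads, exact 95% interval 11.2 to 165). With NaB it was 34.9-fold higher (76 against 2 reads, 9.33 to 293). The log2 difference of Dlx3 was 4.16 (SE 0.60) with TSA and 4.41 (SE 0.74) with NaB. Levels of the 2 genes are not set against each other, since transcript lengths of the counted build were not used here. How the counting treated strand is not stated, so reads of antisense transcripts over either gene could not be told apart.

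**Figure D1:**
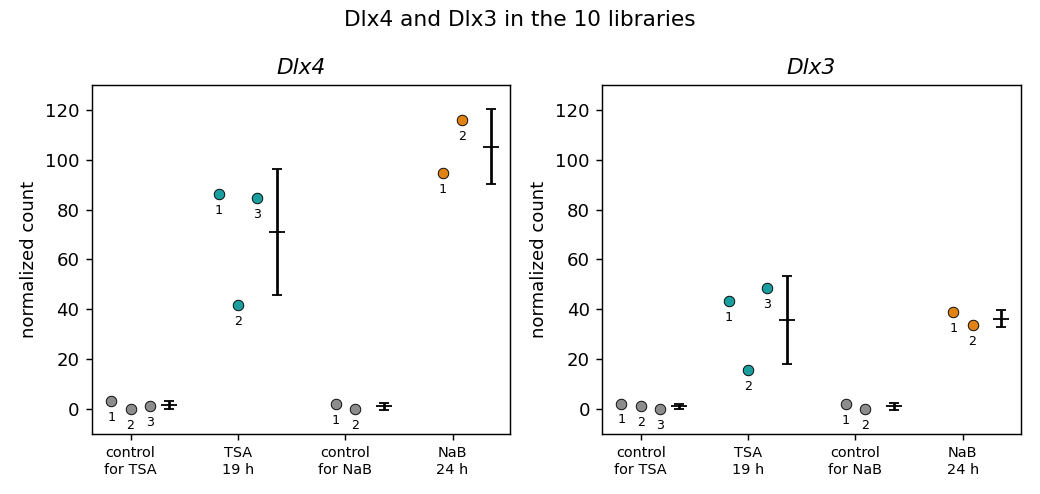
Normalized counts of Dlx4 (left) and Dlx3 (right) in the 10 libraries by group; each point is a library labelled with its replicate number, and the bar beside each group is the mean ± SD. All control libraries lie near 0, and TSA replicate 2, at 41.6 for Dlx4 and 15.4 for Dlx3, is the lowest treated library in both panels.

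The low position of TSA replicate 2 was not particular to the Dlx genes. It was the lowest of the 3 TSA libraries in 1782 of the 3540 genes called higher with TSA (50.3%), against 19.2% for replicate 1 and 30.5% for replicate 3. On the first principal component of all tested genes it lay at 54.2, whereas the other TSA libraries lay at 69.7 and 68.9, the NaB libraries at 76.6 and 76.4, and the controls between -74.5 and -62.5. Without TSA replicate 2 the log2 difference with TSA was 5.40 for Dlx4 and 4.66 for Dlx3.

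Whether the drugs differed in their effect on the Dlx genes was tested in limma by subtracting each gene's TSA change from its NaB change. The genes were chosen by their increase over controls, which enters this contrast, but not by the difference between the drugs. For Dlx4 this difference was 0.85 on the log2 scale (SE 0.91, 95% interval -1.16 to 2.87), with an adjusted p of 0.747 and an unadjusted p of 0.37 in limma. For Dlx3 the difference was 0.25 (SE 0.95, 95% interval -1.85 to 2.35, limma adjusted p = 0.944). Neither difference passed the test. Both intervals are wide, so equal effects of the drugs are not shown. Over all genes, the difference between drugs was called (adjusted p under 0.05 and a log2 difference of at least 0.5) in 47 of 15717 genes, or 0.299%. This number was unstable, since it was 250 with DESeq2, 404 with the culture pairs in the fit, 422 with the 5 controls as 1 group, and 3 and 1 without NaB control replicate 1 or 2.

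Within each treated library, the split of reads between Dlx3 and Dlx4 does not depend on the library's scaling. Dlx4 took 66.7% of the reads of both genes in TSA replicate 1 (exact Clopper-Pearson 95% interval 58.1 to 74.5), 73.0% in TSA replicate 2 (60.3 to 83.4) and 63.5% in TSA replicate 3 (54.9 to 71.6). In the NaB libraries the share was 70.9% (62.7 to 78.3) and 77.4% (70.0 to 83.7). Averaged over libraries the share came to 67.7 ± 4.84% (SD, n = 3) for TSA and to 74.2 ± 4.59% (SD, n = 2) for NaB. The difference of 6.44 percentage points gave p = 0.4 in an exact two-sided permutation test, in a design whose smallest possible p is 0.2. TSA replicate 2, in which both genes were lowest, held a share within the range of the other treated libraries.

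**Figure D2:**
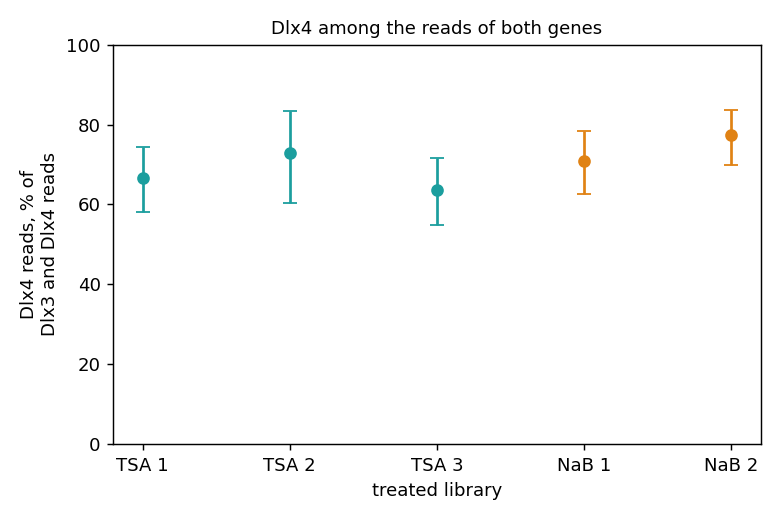
Share of Dlx4 among the reads of Dlx3 and Dlx4 (vertical axis, %) in each of the 5 treated libraries; bars are exact 95% intervals for counting error. The shares run from 63.5% to 77.4%, and the intervals of neighbouring libraries overlap.

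By the size of the log2 difference, Dlx4 stood at rank 54 of 15717 genes with TSA and at rank 12 with NaB, and Dlx3 stood at ranks 139 and 100. Both genes were chosen by this increase, so the ranks are a description only. The median over all tested genes was 0.02 with either drug. Like both Dlx genes, 233 tested genes had at most 3 reads in every control library. Such genes passed the filter on low values through their treated libraries, so they had to be higher there, and nothing is read from that number.

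The genes whose pattern over the 10 libraries was most like that of Dlx4, by Pearson r of log2(normalized count + 1) among genes with a symbol, were Kcna7 (r = 0.994), Foxf1 (r = 0.992) and Zmat4 (r = 0.991). Kcna7, a voltage-gated potassium channel subunit, had 17, 11 and 14 reads in the controls for TSA, 85, 70 and 78 with TSA, 15 and 11 in the NaB controls, and 77 and 79 with NaB. Unlike Dlx4, Kcna7 was thus read at least 11 times in every control library. Foxf1, a forkhead transcription factor of mesoderm, was nearly silent in the controls like Dlx4, with 1, 0 and 0 reads in the controls for TSA and 30, 22 and 31 with TSA. For Dlx3 the most similar genes were Pgr15l (r = 0.991), Mnx1, a homeobox gene of motor neurons and pancreas (r = 0.991), and Tcf24, a basic helix-loop-helix factor (r = 0.989). Mnx1 had 2, 0 and 0 reads in the controls for TSA and 47, 18 and 61 with TSA, and 1 and 0 against 41 and 45 reads for NaB. Tcf24 had 1, 1 and 0 reads in the controls for TSA and 124, 49 and 113 with TSA, and 1 and 0 against 116 and 110 reads for NaB. In Mnx1 and Tcf24, as in Dlx3, TSA replicate 2 was the lowest treated library. The choice by likeness over these same libraries favours such a match. TSA replicate 2 was also the lowest TSA library in 50.3% of genes called higher with TSA. Dlx3 and Dlx4 had r = 0.976 with each other, which put Dlx3 at rank 108 of 15716 genes by likeness to Dlx4. A like pattern was common, since r was at least 0.95 with Dlx4 in 690 genes (4.39%) and with Dlx3 in 522 genes (3.32%). All these values share the same libraries and drug contrast.

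The Dlx genes belong to the wider group of NK-like homeobox genes, of which 43 others were listed and 20 had an identifier. After the filter 19 were tested, and 19 were called higher with TSA and 18 with NaB, with none lower. Of all tested genes 42.3% were called with TSA, 22.5% as higher and 19.7% as lower, and 41.5% with NaB, 21.2% as higher and 20.3% as lower. Because only genes already called higher could be named, this count follows from the naming and nothing is read from it. The median log2 difference of the 19 genes was 3.87 with TSA and 3.56 with NaB, and their range was 1.46 to 6.58 and 1.06 to 6.58. Hlx was the member not called with NaB (1.06, limma adjusted p = 0.0774), and 19 of 19 were called once the culture pairs entered the fit.

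Dlx4 lay in the upper end of this group. Only Nkx6-1, Hmx1, Barhl2 and Nkx2-5 had a larger log2 difference with TSA, and only Nkx2-5 with NaB. Nkx6-1, a factor of ventral neural progenitors and pancreatic beta cells, had 0, 0 and 1 reads in the controls for TSA and 156, 100 and 136 with TSA, and 1 and 1 against 93 and 85 reads for NaB. Nkx6-1 therefore had the larger log2 difference with TSA (6.58, SE 0.36) and the smaller one with NaB (5.40, SE 0.44), the opposite order to Dlx4, but its difference between drugs did not pass the test (-1.18, SE 0.57, limma adjusted p = 0.43). Nkx2-5, the cardiac homeobox gene, was chosen after its values were seen and had 0, 1 and 1 reads in the controls for TSA, 77, 40 and 61 with TSA, 1 and 0 in the NaB controls, and 145 and 138 with NaB. As in Dlx4, its reads were higher in both NaB libraries than in any TSA library. En2, a factor of the midbrain and hindbrain, had the highest control mean of the group, with no correction for length, and was higher by 1.95 (SE 0.41) with TSA and by 1.69 (SE 0.51) with NaB, where the call was lost without control replicate 2 (limma adjusted p = 0.0848) and without NaB replicate 1 (0.118). At most 3 reads in every control library were found for 9 of the 19 genes, and for 233 of all 15717 tested genes. Such genes passed the filter through their treated libraries and were named because they were higher, so nothing is read from this count. TSA replicate 2 was the lowest TSA library in 17 of the 19, and in 50.3% of all genes called higher with TSA. The difference between drugs was called in none of them by limma, DESeq2 or edgeR, and 2 of the 19 had an unadjusted p under 0.05, as did 12.6% of all tested genes.

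**Figure D3:**
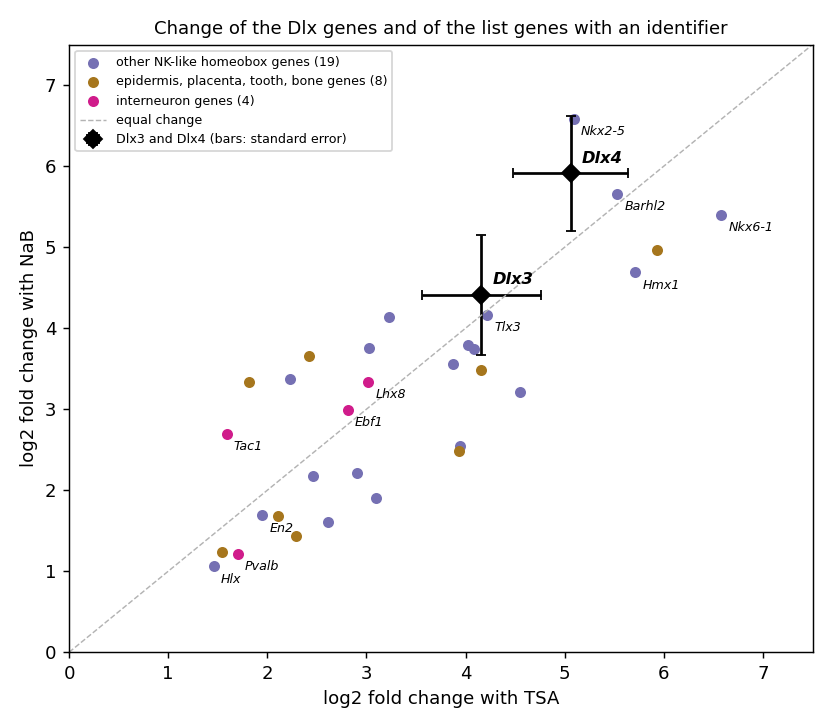
Log2 difference from controls with TSA (horizontal axis) and NaB (vertical axis) for Dlx3 and Dlx4 (black diamonds, bars are standard errors) and for the tested list genes with an identifier; the dashed line marks equal change. Dlx4, at 5.06 and 5.91, lies above most of the 19 other NK-like homeobox genes and above all 4 genes from the interneuron lists.

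Dlx3 and Dlx4 act in epidermis, placenta, tooth and bone, and 24 other genes of these tissues were listed, of which 11 had an identifier and 8 were tested. With TSA 8 and with NaB 7 were called higher (22.5% and 21.2% of all tested genes), none was lower, and the median log2 difference was 2.35 and 2.91. Here too the naming fixes the direction. Ibsp, the bone matrix protein integrin-binding sialoprotein, was furthest from its controls, with 0, 2 and 3 reads in the controls for TSA and 219, 122 and 129 with TSA. In the NaB project Ibsp had 5 and 9 reads in the controls and 280 and 242 with NaB. It was the only one of the 8 above Dlx4 in log2 difference with TSA (5.93, SE 0.49), and with NaB (4.96, SE 0.60) it lay below Dlx4. Bmp2, a signalling protein of bone and ectoderm, had the highest control mean of the 8, again with no correction for length, and was higher by 1.54 (SE 0.22) with TSA and by 1.24 (SE 0.27) with NaB. Grhl2, an epithelial transcription factor, did not pass with NaB (1.43, limma adjusted p = 0.0541) and did so once the culture pairs entered the fit. The remaining 3 named genes, Cdx2, Amelx and Wnt3a, had at most 13 reads in any library and did not pass the filter.

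Interneuron genes were compared with Dlx4, because the family is known for GABAergic interneurons. Of 62 genes on the lists of GABA synthesis and uptake, interneuron subtypes, interneuron transcription factors and migration, 4 had an identifier, namely Pvalb, Tac1, Lhx8 and Ebf1. These 4 are called interneuron genes after their lists, and Lhx8 and Ebf1 come from the list of transcription factors. The enzymes and transporters of GABA, Gad1, Gad2 and Slc32a1 among them, were not analysed here. With TSA all 4 genes were called higher and with NaB 3, against 22.5% and 21.2% of all tested genes, and their median log2 difference was 2.26 and 2.84. Here again only genes that were higher could be named, so the direction of the 62 genes as a group is not known from these 4, and members that fell could not have appeared. None reached the log2 difference of Dlx4 or Dlx3 with either drug, and the contrast between the genes was not tested.

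Lhx8, a LIM homeobox factor of ventral forebrain neurons, had 0, 0 and 4 reads in the controls for TSA, 25, 7 and 15 with TSA, 3 and 0 in the NaB controls, and 21 and 20 with NaB. Its treated libraries lay above its controls, as in Dlx4, and the log2 difference was 3.02 (SE 0.77) with TSA and 3.34 (SE 0.94) with NaB. Its controls held few reads, so it passed the filter on low values through its treated libraries. The call of Lhx8 with NaB was lost without control replicate 2 (2.32, limma adjusted p = 0.0976) and without either NaB library (0.0541 and 0.0518). Ebf1, a helix-loop-helix factor of striatal neurons and of B cells, had 5, 5 and 4 reads in the controls for TSA and 48, 26 and 63 with TSA. In the NaB project Ebf1 had 5 and 5 reads in the controls and 51 and 50 with NaB. TSA replicate 2 was the lowest TSA library for both factors.

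Pvalb and Tac1 mark classes of interneurons. Pvalb, a calcium-binding protein, had 3, 7 and 1 reads in the controls for TSA and 12, 13 and 15 with TSA. In the NaB project its reads were 20 and 12 in the controls and 35 and 47 with NaB. The NaB controls of Pvalb thus overlapped with the TSA-treated libraries, which was not so for Dlx4. Pvalb was higher by 1.70 (SE 0.47) with TSA, whereas with NaB its difference of 1.21 (SE 0.57) had a limma adjusted p of 0.0984, which ranged from 0.0135 to 0.348 over the alternatives. With the 5 controls as 1 group the TSA call of Pvalb was lost (0.88, limma adjusted p = 0.256), and its difference between drugs turned from -0.49 to 1.56 (limma adjusted p = 0.32).

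Tac1, the precursor of substance P, had 93, 84 and 71 reads in the controls for TSA and 303, 252 and 284 with TSA. It had 31 and 26 reads in the NaB controls and 254 and 168 after NaB. Its controls differed between the projects, with mean normalized counts of 86.8 ± 11.2 (SD, n = 3) and 29.6 ± 3.50 (SD, n = 2), whereas those of Dlx4 did not stand apart. The log2 difference of Tac1 was 1.59 (SE 0.19) with TSA and 2.70 (SE 0.23) with NaB. The difference between drugs was 1.11 (SE 0.30, limma adjusted p = 0.182). With the culture pairs in the fit it was 1.11 (SE 0.25, limma adjusted p = 0.0461), past the threshold, and over all alternatives the adjusted p ran from 0.0461 to 0.721. With the 5 controls as 1 group Tac1 was higher by 2.19 with TSA and by 1.79 with NaB, and the difference turned to -0.41 (limma adjusted p = 0.721). For Pvalb, Lhx8 and Ebf1 the difference between drugs did not pass the test, with or without the pairs.

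**Figure D4:**
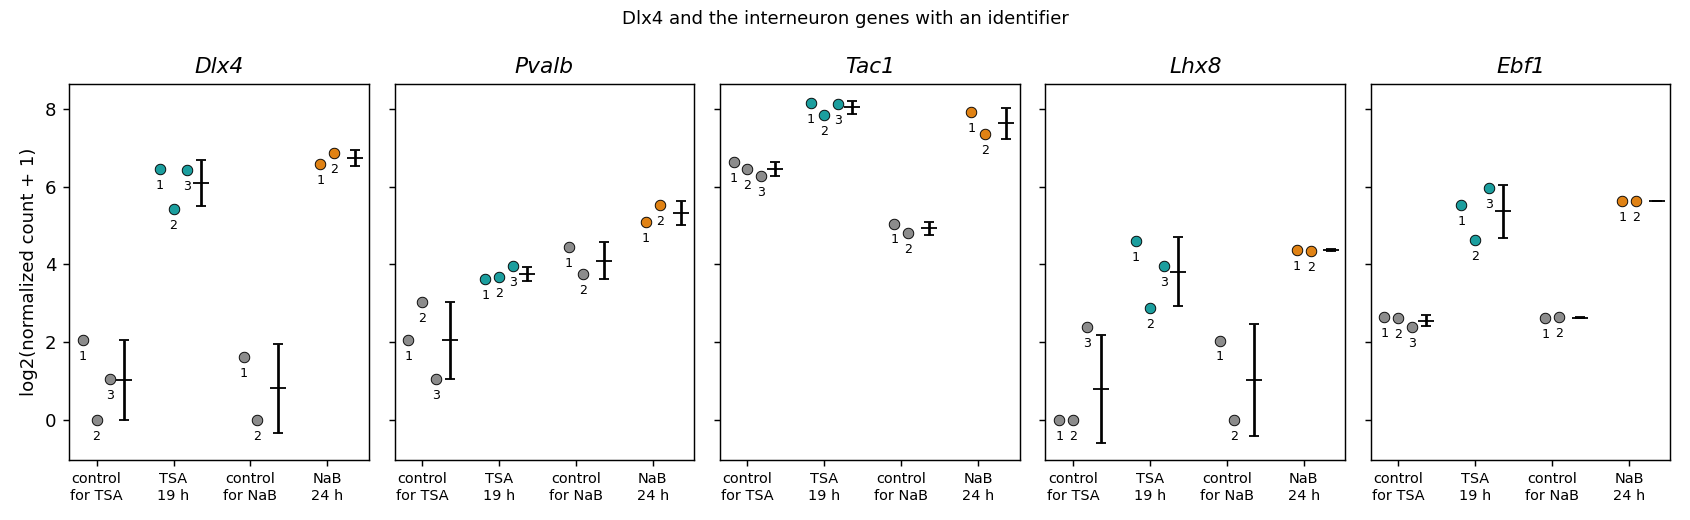
Log2(normalized count + 1) of Dlx4 and of the 4 interneuron genes with an identifier in the 10 libraries by group; points are libraries with their replicate number, and bars beside them are the mean ± SD. For Dlx4, Tac1, Lhx8 and Ebf1 every treated library lies above every control library of both projects, whereas for Pvalb the controls for NaB overlap with the TSA libraries.

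Genes next to the Dlx pairs were examined in the gene order of RefSeq (assembly GRCr8), with 3 protein-coding genes on each side of each pair. Of these 18 neighbours 3 had an identifier, and all 3 lie beside Dlx5 and Dlx6. They are Tac1, Slc25a13 and Sdhaf3, and each could be named only because it was higher, so nothing is read from their direction. Slc25a13, a mitochondrial aspartate and glutamate carrier, had 50, 49 and 36 reads in the controls for TSA, 149, 161 and 120 with TSA, 28 and 55 in the NaB controls, and 108 and 129 with NaB. Its log2 difference was 1.49 (SE 0.25) with TSA and 1.44 (SE 0.31) with NaB. Sdhaf3, an assembly factor of succinate dehydrogenase, was higher by 1.62 (SE 0.14) and 1.42 (SE 0.18). Both genes were read in every control, and their log2 differences were smaller in value than those of Dlx3 and Dlx4, a contrast that was not tested. None of the 6 neighbours of Dlx3 and Dlx4 had an identifier, so whether the change extended to them is not known here.

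Markers of other cells that a culture could hold were read beside the Dlx genes where a name was at hand, which was so for 3 of 51 listed markers. Col1a1, a fibroblast collagen, and Kdr, an endothelial receptor, were 2 of 8 fibroblast and endothelial markers. Their summed normalized counts were 931, 59.7 and 1400.0 in the controls for TSA, 911, 778 and 1010.0 with TSA, 167 and 174 in the NaB controls, and 944 and 1020.0 with NaB. Col1a1 gave most of these counts, with 862, 46 and 1293 reads in the controls for TSA, against 851, 769 and 905 with TSA, so that 2 of these controls lay within or above the treated range while Dlx4 stayed at 3 reads or fewer. In the NaB project Col1a1 had 144 and 131 reads in the controls and 927 and 997 with NaB, and there it moved with Dlx4. Its log2 difference was 1.00 (limma adjusted p = 0.381) with TSA and 2.68 (limma adjusted p = 0.0735, and 0.0117 with the culture pairs in the fit) with NaB, and without control replicate 2 the value for TSA turned to -0.51 (limma adjusted p = 0.0283). Kdr was called higher with TSA (2.53, SE 0.32) and with NaB (1.27, SE 0.40), and without control replicate 1 the value for NaB was 0.75 (limma adjusted p = 0.164), without NaB replicate 1 it was 1.18 (0.0918) and without NaB replicate 2 it was 1.37 (0.0574). Kl, a gene of the choroid plexus and 1 of 5 markers of ependyma and choroid plexus, had 0, 0 and 7 reads in the controls for TSA, 33, 28 and 34 with TSA, 6 and 1 in the NaB controls, and 40 and 24 with NaB. Its log2 difference was 3.91 (SE 0.78) with TSA and 2.99 (SE 0.96) with NaB. The NaB call of Kl was lost without NaB control replicate 2 (2.09), NaB replicate 1 (2.65) or NaB replicate 2 (3.34). The part of such cells in the values of Dlx3 and Dlx4 was not tested.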

How the data were processed

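Gene counts came from bulk RNA-seq of 10 libraries in 4 groups, 100 nM TSA for 19 h and NaB for 24 h, each with its own controls. Per the labels and methods, the authors aligned reads to Rnor_6.0 with STAR 2.7.9a, counted them with featureCounts 2.0.1 and normalized them with DESeq2 1.29. The deposited signal is a gene's read count divided by 1 size factor per library. Whole reads were recovered for 100% of the values, to a tolerance of 1e-06, and depth limits precision at low counts, 3 reads being at most 0.115 CPM.

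Of 32883 genes, 15717 passed filterByExpr (minimum count of 10). The test was limma 3.58.1 with a trend on log2(value + 1) in R 4.3.3, 2-sided, Benjamini-Hochberg adjusted over all tested genes, and genes were called where the adjusted p was under 0.05 and the log2 fold change was 0.5 or more in size. The scripts were tested on simulated data. Count tests on the recovered reads, edgeR 4.0.16 and DESeq2 1.42.0, were alternatives; edgeR with TMM called 6657 genes with TSA and 6546 with NaB, and DESeq2 6435 and 6345. Intervals of shares and folds are exact 95% intervals and cover counting error only.

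The members and lists were chosen with earlier results of these data known. Of 197 list genes 38 had an identifier. The genes named were all Dlx members with an identifier, the most changed member of each list and that with the highest control mean, the Dlx neighbours, and the 3 genes with a symbol most like each Dlx gene. Outside this rule, Hmx1, Barhl2, Nkx2-5, Hlx, Grhl2, Cdx2, Amelx and Wnt3a were named after their values were seen. Lists of GABA enzymes, excitatory neuron genes, migration genes, the study's interneuron genes, proliferation genes, neuron and glial markers and Dlx antisense transcripts had no member with an identifier. Dlx protein and promoter sequences were not analysed here.

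Each pair, a control and a treated culture, grew on the same plate, per the study's methods, and pairs were taken from replicate numbers in the titles for TSA and from consecutive library names for NaB. Their deviations from the group means correlated (r = 0.284, 0.392 and 0.314 for the TSA pairs and 0.342 for the NaB pairs, which 2 replicates make equal), so the numbers pair the cultures, and a fit with the replicate block was an alternative. The main fit left the pairs out. With the pairs in, the difference between drugs was 0.85 for Dlx4 (SE 0.68, limma adjusted p = 0.533). For Dlx3 it was 0.25 (SE 0.86, limma adjusted p = 0.907).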

Additional observations from a re-analysis of the deposited data

How the results depend on the processing

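The log2 difference of Dlx4 and Dlx3 was above 0 with both drugs under every alternative in which the genes were tested. A mean of at least 50 normalized counts left both genes out, and no value could be given there. With a pseudocount of 5 the values were 3.53 and 4.20 for Dlx4 and 2.65 and 2.79 for Dlx3 (TSA and NaB), and with DESeq2 the TSA value of Dlx3 was 5.09. Without 1 library at a time, Dlx4 ranged from 4.54 to 5.57 with TSA and from 5.10 to 6.72 with NaB, and Dlx3 from 3.71 to 4.66 and from 3.60 to 5.22. The difference between drugs ranged from 0.05 to 1.66 for Dlx4 and from -0.56 to 1.06 for Dlx3. For Dlx3 it changed sign without TSA control replicate 1 (-0.13), TSA replicate 2 (-0.26) or NaB control replicate 2 (-0.56), and the cause was not tested. Over the alternatives that gave an adjusted p, it lay between 0.476 and 0.992 for Dlx4 and between 0.725 and 0.998 for Dlx3.

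The number of genes called for the difference between drugs, 47 in limma, was 250 with DESeq2, 71 with library totals, 31 with no filter and 422 with the 5 controls as 1 group. It was 404 with the replicate block, which changed the calls of Hlx, Grhl2, Col1a1 and Tac1 given above and moved no other count used here by more than 1.5 times. Without 1 library at a time it ran from 1 (without NaB control replicate 2) to 45, and it was 3 without NaB control replicate 1, 6 and 17 without NaB replicates 1 and 2, 14 and 20 without TSA control replicates 1 and 3, and 21 without TSA replicate 3. The cause was not tested. With library totals the median log2 difference of all genes moved from 0.02 to 0.20 with TSA and to 0.13 with NaB, and 4675 of 6841 genes called with TSA were higher (68.3%), against 3540 of 6644 (53.3%). On that scaling Dlx4 was at 5.20 and 5.98 and Dlx3 at 4.28 and 4.47 with TSA and NaB.

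A mean of at least 50, which tests fewer genes, left 4 NK-like genes called higher with TSA and 4 with NaB, 3 and 3 epidermis, placenta, tooth and bone genes, and 1 and 1 interneuron genes. Without 1 library at a time these list counts were 19 in every case and 14 to 18 for NK-like genes, 7 to 8 and 5 to 8 for epidermis, placenta, tooth and bone genes, and 4 in every case and 2 to 4 for interneuron genes. Genes called ranged from 6164 to 6718 with TSA and from 5649 to 6581 with NaB without 1 library at a time, and from 5202 to 6958 and from 5337 to 7025 over all alternatives. The alternatives gave 1744 changes against controls of single genes other than Dlx3 and Dlx4, including tested list genes not named above. Differences between drugs are not among these changes. Of the 1744, 1669 kept direction and call, 44 lost a call, 30 gained one and 1, that of Col1a1, changed sign. The value of Col1a1 with TSA ran from -0.51 to 1.91 without 1 library at a time. Arms of 2 libraries limit all NaB values, and 0 to 3 reads limit the control levels of the Dlx genes.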
